A study of Rattus norvegicus with 18 samples.

Results

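Inborn running capacity was examined in untrained gastrocnemius, a mixed calf muscle, of rats bred as high capacity runners (HCR) or low capacity runners (LCR). The 3 HCR and 3 LCR libraries, identified by their labels, are 6 of the 18 libraries of the series, and each came from 1 rat. All 6 rats were males of generation 33, descended from the heterogeneous N:NIH founder stock, whose families had been selected on treadmill running at 11 weeks of age. None had been trained, no transgene or agent is named for either line, and the age at which the archived frozen muscle was taken is not given in the sources used here. The lines were bred apart for many generations, so alleles fixed by drift and alleles fixed by selection cannot be told apart, and there was no unselected line.

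Skeletal muscle is built of slow fibres, which use oxygen and resist fatigue, and of fast fibres, which contract quickly and tire sooner. Each kind has its own set of myosin light chains, troponins and tropomyosins, and a mixed muscle such as gastrocnemius holds both. Heart muscle shares several proteins with slow fibres. In a piece of whole muscle, fewer cells of a type and less RNA per cell cannot be told apart.

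The data came in 2 forms. Raw counts per rat are listed by Ensembl identifier, with totals from 31869042 to 42172690. Levels by gene symbol are the authors' own, 1 value per line with the rats pooled, for the 434 entries (433 distinct symbols) that the authors called different between the lines. The unit of these levels is not named, so ratios were taken only between the lines for the same gene. Medians and limits over several genes are given as descriptions only. The files do not pair identifiers with symbols, and a gene described by its symbol therefore has no value per rat and no error here. Because only called genes are listed, the direction of a listed gene is a description with no test of its own, and a gene that is not listed cannot be read as equal in both lines.

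LCR replicate 2 stood apart from the other libraries. It had the lowest TMM scaling factor, 0.881 against 0.965 to 1.09 in the other 5 libraries, and 1074 of its genes (8.17% of those tested) lay more than 2-fold from the median of the other 5 rats, 823 of them lower. In the other 5 libraries 551 to 771 genes did so. The median SD of log2 CPM (counts scaled to a common library size with the TMM factor) between LCR rats was 0.264 with this rat and 0.157 without it. With 2 rats in the same way it was 0.221 and 0.269 without LCR replicates 3 and 1, and 0.188 to 0.23 without each HCR rat in turn. The authors' pooled levels include this rat and could not be recomputed without it. The muscle label could be checked only in part, because the 5 markers fixed for muscle fibres (Acta1, Ckm, Des, Ttn and Myoz1) are not among the listed symbols.

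Of the 434 entries, 257 were higher in HCR and 177 lower. The median of the higher entries was 1.66 in LCR and 4.61 in HCR, with a median ratio of 2.51. For the lower entries it was 11.5 in LCR and 4.998 in HCR, with a median ratio of LCR to HCR of 2.05. In 44 of the 257 higher entries (17.1%) even the greater level was under 1, against 7 of 177 (3.95%) on the lower side. At the other end, 24 higher and 7 lower entries had a level of at least 100 in 1 of the lines.

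**Figure D1:**
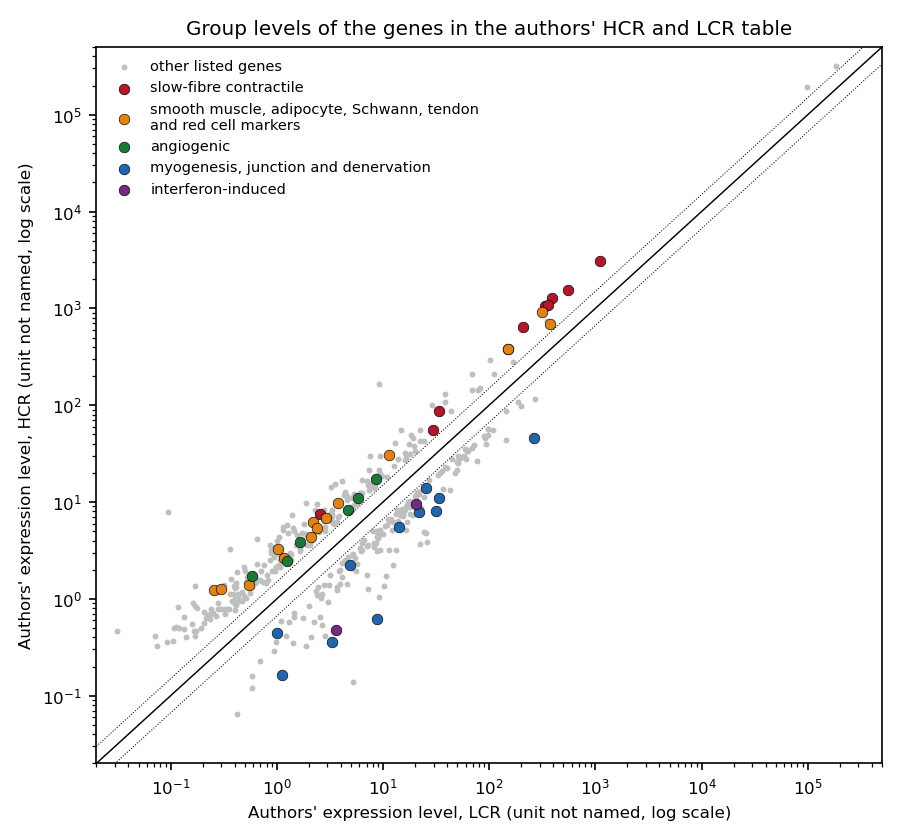
Authors' pooled expression level of each of the 434 entries in LCR (horizontal axis) and HCR (vertical axis), both on log scales and in an unnamed unit; the solid line marks equal levels and the dotted lines a 1.5-fold difference. The red points of slow-fibre contractile genes lie above the line and reach the level of 3079 of Myl3 in HCR, while the blue points of myogenesis, junction and denervation genes lie below it.

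The listed slow-fibre contractile genes were higher in HCR. Of the 16 members of that list, 10 are in the authors' table and 10 of 10 were higher, where 59.2% of all 434 entries were, with log2 ratios from 0.91 to 1.71 and a median of 1.52. Among the thin filament genes, Tpm3, the slow tropomyosin, had a level of 394 in LCR and 1292 in HCR. Tnnc1, Tnni1 and Tnnt1, the slow troponins C, I and T, had levels of 334, 355 and 549 in LCR and of 1064, 1095 and 1565 in HCR. These 4 genes had ratios of HCR to LCR of 2.85 to 3.28. Tpm3 also makes tropomyosins outside muscle, which the level does not separate.

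The myosin light chains of slow fibres and heart had ratios of 2.78 and 3.07. Myl3, the essential chain, had a level of 1108 in LCR and 3079 in HCR, and Myl2, the regulatory chain, had 208 and 638. Myh7b, a slow-type myosin heavy chain gene, was listed at 2.57 in LCR and 7.44 in HCR. Smaller ratios were found at the Z-disc and the calcium store. Myoz2, a calcineurin-binding Z-disc protein, had levels of 150 and 379, Ankrd2, an ankyrin repeat protein that responds to stretch, 33.8 and 86.2, and Casq2, the calsequestrin of slow and heart muscle, 29.5 and 55.6. The 6 members not listed are Myh7, Myl6b, Atp2a2, Pln, Actn2 and Csrp3. None of the 15 genes fixed for fast fibres is listed, nor any of the 13 mitochondrially encoded subunits, the nuclear subunits of the 5 respiratory complexes or the 18 citric acid cycle genes, so their levels in the lines are not known from this table.

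A group of 9 genes known chiefly from heart muscle was put together from genes already seen to be higher in HCR, so its direction is no result. Tnnt2, the troponin T of heart, had 0.868 in LCR and 3.64 in HCR, Myh6, the alpha myosin heavy chain, 4.54 and 11.6, and Mybpc3, the heart form of myosin-binding protein C, 0.105 and 0.371. Reads of Myh6 may be split with near-identical myosin genes. Fhl2, a LIM domain adaptor, had levels of 2.46 and 7.77, and Tecrl 2.38 and 9.49. The ion channels Hcn4, of pacemaker cells, and Kcna5 were listed at 0.221 and 0.689 in LCR and at 0.674 and 1.55 in HCR. Sbk3 and its neighbour Sbk2, a pair of kinase genes, had 0.316 and 7.71 in LCR and 1.40 and 14.9 in HCR. The ratios of HCR to LCR in this group ran from 1.93 to 4.41.

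**Figure D2:**
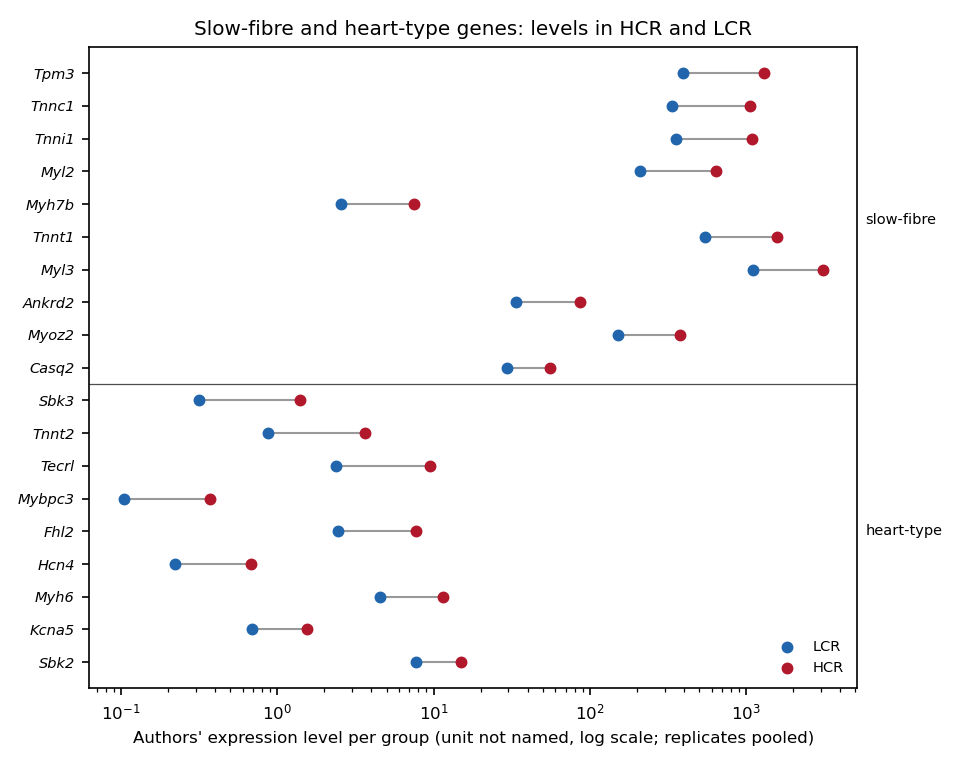
Authors' pooled levels in LCR (blue) and HCR (red) of the 10 listed slow-fibre genes and the 9 heart-type genes, on a log axis in an unnamed unit; each grey bar joins the 2 levels of 1 gene, and no error can be drawn because the rats were pooled. The heart-type genes were chosen as higher in HCR, and the slow-fibre genes are the 10 of 16 that are listed; levels run from 0.105 for Mybpc3 in LCR to 3079 for Myl3 in HCR.

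The promoters of some of the slow-fibre and heart-type genes are shown for their sequence features. The 250 bases before the start of each gene were taken from RefSeq on the GRCr8 build, which is not the build of the counts, and are printed 5′ to 3′ on the strand of the gene, with matches to the searched motifs in capitals. Searched on both strands were the MCAT motif CATTCC, the E-box CAGCTG, the TATA motif TATAAA, and the MEF2 site and CArG box by name. CAGCTG reads the same on both strands and was counted once. GGAATG is CATTCC on the other strand.
Myl3, chr8:119616844-119617093, plus strand: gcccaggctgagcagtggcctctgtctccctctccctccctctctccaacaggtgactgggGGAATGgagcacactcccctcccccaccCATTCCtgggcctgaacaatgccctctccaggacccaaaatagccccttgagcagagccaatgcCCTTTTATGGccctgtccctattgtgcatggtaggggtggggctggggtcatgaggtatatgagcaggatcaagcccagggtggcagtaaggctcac
Tnnt1, chr1:78348785-78349034, plus strand: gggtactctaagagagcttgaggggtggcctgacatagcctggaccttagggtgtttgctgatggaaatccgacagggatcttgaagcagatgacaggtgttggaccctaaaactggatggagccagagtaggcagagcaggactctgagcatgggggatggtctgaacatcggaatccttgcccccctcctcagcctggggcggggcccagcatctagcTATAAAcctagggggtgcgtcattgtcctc
Tpm3, chr2:177814633-177814882, plus strand: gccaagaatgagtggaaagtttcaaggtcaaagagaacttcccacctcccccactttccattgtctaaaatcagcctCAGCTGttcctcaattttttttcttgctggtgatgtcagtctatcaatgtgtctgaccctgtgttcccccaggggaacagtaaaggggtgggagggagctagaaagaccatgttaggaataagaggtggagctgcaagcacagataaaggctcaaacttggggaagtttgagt
Tnnt2, chr13:49818873-49819122, plus strand: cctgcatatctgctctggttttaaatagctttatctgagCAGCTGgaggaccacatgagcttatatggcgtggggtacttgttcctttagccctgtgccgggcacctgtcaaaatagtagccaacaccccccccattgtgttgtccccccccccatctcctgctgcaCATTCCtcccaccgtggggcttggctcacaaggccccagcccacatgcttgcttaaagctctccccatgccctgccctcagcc
Myh6, chr15:32411698-32411947, minus strand: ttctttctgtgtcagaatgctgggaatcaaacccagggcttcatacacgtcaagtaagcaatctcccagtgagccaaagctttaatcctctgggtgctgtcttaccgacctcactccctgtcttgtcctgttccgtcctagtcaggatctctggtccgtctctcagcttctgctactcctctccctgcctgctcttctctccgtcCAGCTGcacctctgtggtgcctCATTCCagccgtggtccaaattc

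The Myl3 window holds the MCAT motif on each strand and a CArG box, that of Tnnt1 holds TATAAA from 30 to 25 bases before the start, and that of Tpm3 holds 1 E-box. In Tnnt2 and Myh6 both an E-box and an MCAT motif lie in the window. Of the 10 slow-fibre genes 8 had a promoter in the reference table, and 1 held an MCAT motif, 2 an E-box, 2 TATAAA, 2 a MEF2 site and 1 a CArG box. Of the 9 heart-type genes 8 had one, and 5 held an MCAT motif, 4 an E-box, 2 TATAAA, 2 a MEF2 site and 1 a CArG box. Over all 33469 promoters of the reference the shares were 12.1% for MCAT, 12% for the E-box, 12.9% for TATAAA, 2.96% for the MEF2 site and 1.5% for the CArG box. These matches are letters in a window and say nothing of binding.

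Genes of fuel use were listed on both sides. A lipid group written after the levels had been seen held 17 higher and 8 lower genes, where 59.2% of all 434 entries were higher. Ldhb, the lactate dehydrogenase subunit of oxidative muscle, had a level of 102 in LCR and 290 in HCR, Slc16a7, a lactate and pyruvate carrier, 0.881 and 3.21, and Bdh1, of ketone body use, 0.933 and 3.46. Of the 28 members of the fatty acid list, Lpl, which frees fatty acids from blood lipids, and Fabp3, which carries them in the cell, are listed, at 69.4 and 348 in LCR and at 145 and 743 in HCR. Several acyl-CoA dehydrogenase genes were also higher, with Acadsb at 44.0 and 86.2, Acad9 at 18.5 and 49.4, and Acad11 at 7.68 and 15.3. Lower in HCR were Gpd2, the mitochondrial glycerol phosphate dehydrogenase, at 60.1 in LCR and 28.1 in HCR, and Hacd1, of fatty acid elongation, at 97.2 and 48.7. Prkaa2, the catalytic alpha 2 subunit of AMP-activated kinase, was lower too, at 109 and 55.4, while Prkd1, protein kinase D1, was at 0.563 and 1.16. Adipoq, Plin1 and Cidec, 3 of 8 adipocyte markers, are listed and were also higher in HCR. Plin1 and Cidec are themselves in the lipid group. The levels of the 3 were 3.78, 0.543 and 0.298 in LCR and 9.72, 1.41 and 1.25 in HCR. The part of adipocytes in the lipid genes was not tested.

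The listed members of the angiogenic and matrix lists were higher in HCR, as were 59.2% of all 434 entries. Of 33 angiogenic genes 6 are listed and 6 of 6 were higher, Thbs1 and Klf2 being genes that the study names. Angpt2, a ligand of the Tie2 receptor, had 1.66 in LCR and 3.84 in HCR, Apln, the apelin ligand, 1.24 and 2.44, and Klf2, a flow-induced factor of endothelium, 8.64 and 17.3. Thbs1, which restrains vessel growth, had 0.590 and 1.72. Of 37 matrix genes 7 are listed and 7 of 7 were higher, among them Col1a1, a chain of type I collagen, at 9.26 and 21.5, and the plasminogen activator Plat, at 2.45 and 5.31. The study itself names 7 of these 7, so the count is not independent of its choice. Outside the list, the collagen gene Col19a1 and the metalloproteinase gene Mmp24 were lower in HCR, at 0.422 and 6.36 in LCR and 0.0650 and 3.16 in HCR.

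The listed markers of several other cell types were higher in HCR, as were 59.2% of all 434 entries. Most markers of each type are not listed. None of the 10 endothelial markers is listed, so the table gives no level for any of them. Of 8 markers of smooth muscle cells and pericytes, Acta2, Myh11 and Cnn1 are listed. They had 11.5, 2.40 and 0.258 in LCR and 30.3, 5.39 and 1.24 in HCR. The tendon markers Tnmd and Kera (2 of 7) had 1.035 and 2.93 in LCR and 3.26 and 6.77 in HCR. The Schwann cell markers Mbp and S100b (2 of 5) had 1.16 and 2.12 in LCR and 2.65 and 4.365 in HCR. The satellite cell marker Sdc4 (1 of 6) had 8.41 and 14.5, and Col1a1, also a fibroblast marker (1 of 8), had the values given above. Of 8 red cell markers 3 are listed, of which Hba-a2 has 2 entries. The haemoglobin entries had 317 and 150 (Hba-a2) and 377 (Hbb) in LCR, and 928, 379 and 684 in HCR. The haem synthesis gene Alas2 had 2.19 and 6.21, and reads may be split among haemoglobin copies. No marker of macrophages or lymphocytes (0 of 9 each) is listed. The part of these cell types in the vascular, matrix, lipid and myogenesis results was not tested.

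On the other side, the listed myogenesis genes were lower in HCR. Of 22 members 7 are listed and 7 of 7 were lower, with a median log2 ratio of -2.55, where 177 of all 434 entries were lower. Ostn, a secreted muscle peptide, had a level of 266 in LCR and 45.5 in HCR. Mstn, myostatin, which limits muscle growth, had 22.04 and 7.80, Cdkn1a, an inhibitor of the cell cycle, 33.8 and 11.03, and Ankrd1, an ankyrin repeat protein induced by stress, 31.3 and 8.04. The 3 others had the widest ratios of the list. Ppm1h, a phosphatase, had 8.78 and 0.614, Ranbp3l 3.32 and 0.360, and Tmem8c, the fusion protein myomaker, 1.11 and 0.165. Of 37 genes that were followed here because the study names them 36 are listed, 28 higher and 8 lower in HCR. It names Ostn, Ppm1h, Ranbp3l and Tmem8c, so that 4 of the 7 are not independent of its choice of genes.

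Of 17 genes of the neuromuscular junction and of denervation 4 are listed and 4 of 4 were lower in HCR, beside the 177 of all 434 entries, and nothing is known here of the other 13. Chrna1, the alpha subunit of the acetylcholine receptor, had 14.3 in LCR and 5.59 in HCR, and Musk, the receptor kinase that clusters it, 1.014 and 0.442. Runx1 and Gadd45a, both induced when muscle loses its nerve, had 4.85 and 25.2 in LCR and 2.26 and 14.1 in HCR. The promoters of the receptor and of its kinase are shown as the pair of junction genes with a searched motif.
Chrna1, chr3:78877354-78877603, minus strand: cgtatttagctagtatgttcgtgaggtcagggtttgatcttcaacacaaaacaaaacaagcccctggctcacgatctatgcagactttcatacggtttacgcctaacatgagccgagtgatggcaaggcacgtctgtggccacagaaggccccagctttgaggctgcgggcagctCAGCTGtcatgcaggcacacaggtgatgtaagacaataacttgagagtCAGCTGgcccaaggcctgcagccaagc
Musk, chr5:77853486-77853735, plus strand: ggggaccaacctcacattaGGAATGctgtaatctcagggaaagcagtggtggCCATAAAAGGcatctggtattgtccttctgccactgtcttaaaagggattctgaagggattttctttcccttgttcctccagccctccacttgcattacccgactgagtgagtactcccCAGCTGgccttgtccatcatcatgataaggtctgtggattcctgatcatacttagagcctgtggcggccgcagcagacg

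The Chrna1 window holds CAGCTG in 2 places, and that of Musk holds CAGCTG once, the MCAT motif on the other strand and a CArG box. Of the 11 listed myogenesis and junction genes 7 had a promoter in the reference table, of which 2 held an E-box, 1 an MCAT motif, 1 a CArG box, 0 TATAAA and 0 a MEF2 site, beside the shares over all promoters given above (12% for the E-box). The windows printed are those of the genes that hold a motif.

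A group of 8 genes of cell cycle arrest and the p53 response, Cdkn1a and Gadd45a included, was put together from genes already seen to be lower in HCR, so its direction is no result. Related genes went the other way, Gadd45g at 17.6 in LCR and 40.1 in HCR, and the kinase Plk3 at 0.321 and 0.780. Eda2r, a receptor induced by p53, had 13.3 in LCR and 3.20 in HCR, Cdkn2b, an inhibitor of cyclin-dependent kinases, 7.11 and 1.78, and Tp53inp1 8.14 and 3.41. Tp53i3, Tp63 and Tp53bp1 had 24.4, 7.25 and 6.64 in LCR and 11.2, 3.58 and 4.09 in HCR.

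**Figure D3:**
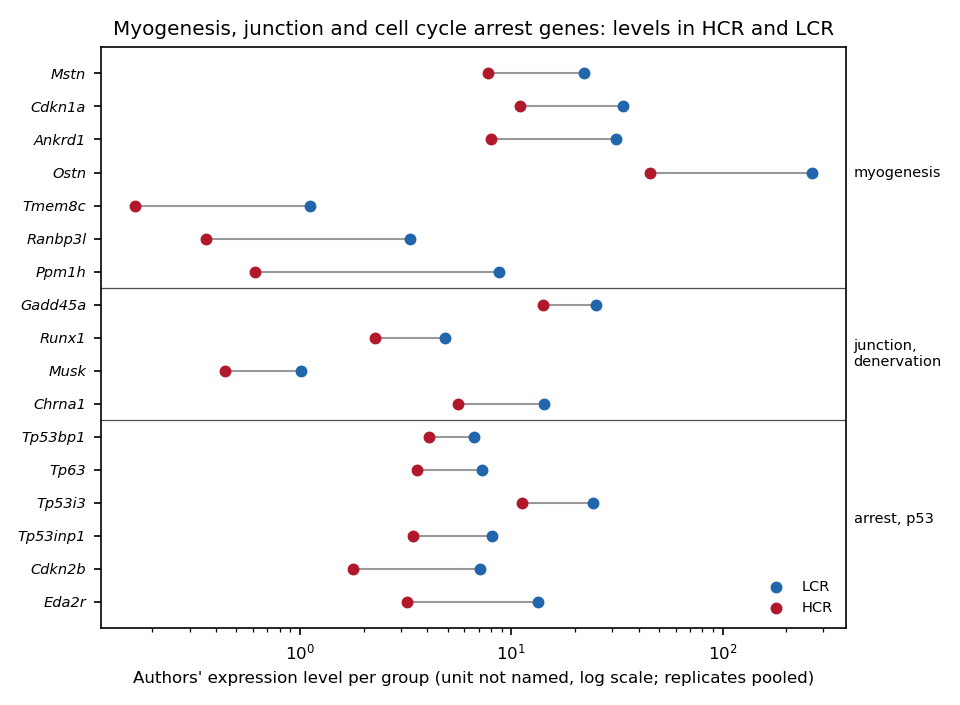
Authors' pooled levels in LCR (blue) and HCR (red) of the listed myogenesis, junction and denervation, and arrest and p53 genes, on a log axis in an unnamed unit; each gene is drawn once, so Cdkn1a and Gadd45a stand in the upper groups. The arrest and p53 genes were chosen as lower in HCR; the gaps run from the 1.63-fold gap of Tp53bp1 to the 14.3-fold gap of Ppm1h.

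Developmental transcription factors were found on both sides, 7 higher and 11 lower in a group of 18 set up after the levels had been seen. Of all 434 entries 59.2% were higher. The Hoxd genes Hoxd4, Hoxd9 and Hoxd10, which pattern the limb and lie in 1 cluster, had 5.45, 11.9 and 2.63 in LCR and 2.66, 6.31 and 1.09 in HCR. Pitx1, a hindlimb factor, was lower in HCR at 0.585 and 0.120. Sox6, known to repress slow-fibre genes in fast fibres, had 13.1 in LCR and 7.60 in HCR. Foxp2 had 10.1 and 1.35, and Six2 19.0 and 7.40. Higher in HCR were Tbx1, at 22.1 and 42.3, and Prox1, at 0.587 and 1.33.

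Immune genes also split, with 8 higher and 8 lower in a group written after the levels had been seen. The interferon-induced genes Ifit1 and Ifi44, 2 of a list of 34, were lower, as 177 of all 434 entries were, and had 3.58 and 20.4 in LCR and 0.478 and 9.63 in HCR. The guanylate-binding proteins Gbp1 and Gbp3 had 42.7 and 3.72 in LCR and 13.5 and 1.22 in HCR, and their reads may be shared with near-identical copies. Genes close to these went the other way, Mpa2l, of the same family, at 0.486 and 2.12, and Ifit1bl, next to Ifit1, at 0.277 and 0.904. The chemokine Cxcl9 was lower too, at 7.02 and 3.51. Higher in HCR were the chemokine Ccl21, at 4.39 and 12.8, and 4 complement genes. C6 and C7, of the terminal complex, had 0.657 and 2.37 in LCR and 2.28 and 5.46 in HCR, and the inhibitors Cfi and Serping1 had 0.756 and 9.81 in LCR and 2.22 and 18.4 in HCR. Of 23 activity-induced genes 3 are listed and 3 of 3 were higher, beside the 59.2% of all entries. They are Fos at 4.55 and 8.35, Fosb at 0.163 and 0.914, and Nr4a2 at 0.407 and 0.936.

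Some single genes differed further. Amy1a, an amylase, had 0.0940 in LCR and 7.96 in HCR, and its reads may be split with other amylase copies. Fam163a was listed at 0.0310 and 0.471, and Dgcr8, of microRNA processing, at 26.1 and 3.88. In the reference annotation of the GRCr8 build, some of the listed genes are neighbours. Among 395 placed genes, 31 pairs had at most 1 protein-coding gene between them, and 18 of these were both higher, 5 both lower and 8 opposite. Since 59.2% of all 434 entries were higher, more pairs would be both higher than both lower in any case. The counts were not tested. Examples are Sbk3 and Sbk2, C6 and C7, and Tnni1 and Tnnt2, all higher, and Hoxd10 and Hoxd9, both lower. Tnnt2 and Igfn1, an immunoglobulin-like muscle protein with levels of 9.22 in LCR and 1.05 in HCR, are close and went opposite ways. Whether reads shared by overlapping neighbours entered the authors' levels is not known here.

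The counts give the spread between rats that the pooled levels lack. After edgeR's filterByExpr 13138 genes were tested with edgeR's quasi-likelihood test, and calls needed more than a 1.5-fold change and, after Benjamini-Hochberg adjustment, a p under 0.05. Of these, 4 (0.0304%) were called, and 4 of 4 were higher in HCR. The authors called 434 entries with another test, 177 of them lower in HCR. At most 4 of those entries can be among the genes called here, and which they are is not known without paired identifiers. Without the adjustment, 603 genes (4.59%) met both limits, of which 395 (3.01% of those tested) were higher in HCR and 208 (1.58%) lower. Some genes pass an unadjusted limit without any difference between the lines. The p-values judge the difference between the lines against the spread among 3 rats of each line. The estimate of that spread borrows from all tested genes. Without LCR replicate 2 no gene was called and 539 genes passed the unadjusted threshold, and without LCR replicate 3 again none was called, while 955 passed it. No gene was called either with at least 10 counts in every library, or with the unexplained number of the column headings as a covariate.

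The called gene with the smallest p, ENSRNOG00000054174, was nearly absent from LCR. Its counts were 127, 159 and 164 in HCR and 5, 1 and 1 in LCR, so the groups did not overlap. The log2 fold change was 5.92 (SE 0.50, adjusted p = 0.0331 in edgeR's quasi-likelihood test) and depends on the prior count. The ratio of the scaled sums of counts was 62.6, with an exact binomial 95% interval of 30.1 to 157 that covers counting error only. A better-counted gene was the second, ENSRNOG00000032902. It had 22.1, 25.9 and 24.1 CPM in the HCR rats and 5.59, 7.41 and 4.75 CPM in the LCR rats, again with no overlap. The means were 24.0 ± 1.89 CPM (SD, n = 3) and 5.92 ± 1.36 CPM (SD, n = 3), and the log2 fold change was 2.03 (SE 0.20, adjusted p = 0.0460 in edgeR's quasi-likelihood test). Over the alternative settings, ENSRNOG00000054174 was under an adjusted p of 0.05 in 9 of 15, with values up to 0.116 in edgeR, and ENSRNOG00000032902 in 6 of 16, with values up to 0.249 (without LCR replicate 1). Both kept their direction in every one of these settings.

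The third called gene had 77, 56 and 98 counts in HCR and 2, 1 and 6 in LCR. In the rats bred for response to training, whose counts are in another table, its counts divided along the lines too. High responders, trained or not, had 105 to 159 counts and low responders 1 to 6, which is a description with no test. The gene with the smallest p did not divide that way, as it had 0, 1 and 113 counts in the trained low responders and 92 to 291 in the other 9 rats. The fourth called gene had 13.8, 9.14 and 11.2 CPM in HCR and 1.61, 2.74 and 1.81 CPM in LCR. The third was under an adjusted p of 0.05 in 4 of 15 alternative settings and the fourth in 4 of 16.

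No gene that was lower in HCR was called by edgeR's quasi-likelihood test at these settings, beside the 208 at an unadjusted p under 0.05 and 31 called by DESeq2's Wald test. Lower genes were called by edgeR at other settings, 3 with no filter beyond 1 count, 2 with all 18 libraries in the fit, 5 without HCR replicate 3, and 1 each without HCR replicate 1, without HCR replicate 2 and in the 4 libraries whose heading carries the number 1. The pair with the smallest p were ENSRNOG00000052173, with 8, 15 and 22 counts in HCR and 89, 142 and 117 in LCR, and ENSRNOG00000026087, with 13.1, 17.8 and 5.38 CPM in HCR and 87.3, 90.3 and 142 CPM in LCR. Their log2 fold changes were -3.03 and -3.14, with adjusted p-values of 0.116 and 0.125 in edgeR's quasi-likelihood test, and that their lines do not overlap was a condition of naming them. Over the alternative settings each was under 0.05 in 2, with edgeR values of 0.00673 for ENSRNOG00000052173 with no filter beyond 1 count and of 0.0392 for ENSRNOG00000026087 without HCR replicate 3, and with DESeq2 for both. The fifth gene on the higher side, just short of the threshold, stood at 94.5, 53.6 and 25.99 CPM in HCR and 3.09, 3.25 and 3.06 CPM in LCR (adjusted p = 0.0510 in edgeR's quasi-likelihood test). Its HCR rats differed widely from each other while its LCR rats were close.

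**Figure D4:**
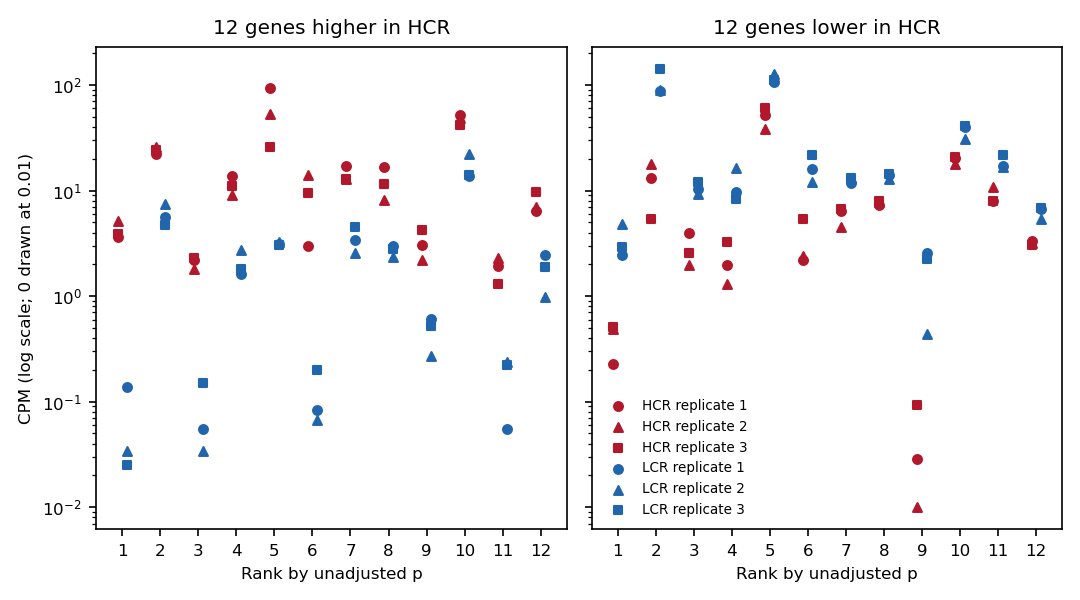
CPM of each rat (log axis) for the 12 genes higher in HCR (left) and the 12 lower in HCR (right) with the smallest unadjusted p, ordered by it, among genes past a 1.5-fold change whose lines do not overlap and whose higher line reaches 1 CPM on average; red symbols are HCR rats, blue symbols LCR rats, and the symbol shape gives the replicate. The first 4 genes on the left are the called ones, and the first HCR set on the right lies between 0.228 and 0.515 CPM against 2.48 to 4.81 CPM in LCR.

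Over all tested genes, the 3 rats of 1 line lay wholly above or below those of the other in 1616 (12.3%), with HCR above in 814 (6.2%) and below in 802 (6.1%). With 3 rats per line, many genes separate in this way without any difference between the lines, so the count is a description. The split changed with abundance. Among the 1821 genes under 1 CPM on average, HCR was above in 172 and below in 66, and among the 5538 genes of 10 to 100 CPM it was above in 232 and below in 431. With library totals alone in place of TMM these counts were 149 and 58 under 1 CPM, and 167 and 416 from 10 to 100 CPM. Size and separation were read from the same 6 values, so the following is a description. Of the genes that differed at least 1.5-fold, 1038 higher and 491 lower, 39.4% did not overlap, while of those that differed at least 4-fold, 50 higher and 26 lower, 71.1% did not. Presence in 1 line only was rare. With at least 10 counts in every rat of 1 line and at most 3 in every rat of the other, there was 1 gene for HCR (of 12517 with at least 10 counts in all HCR rats) and there were 4 for LCR (of 12283). The 4 depended on these limits. With at most 1 count in the other line there was 1 for HCR and 0 for LCR, and with a minimum of 20 and at most 3 there was 0 for each.

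**Figure D5:**
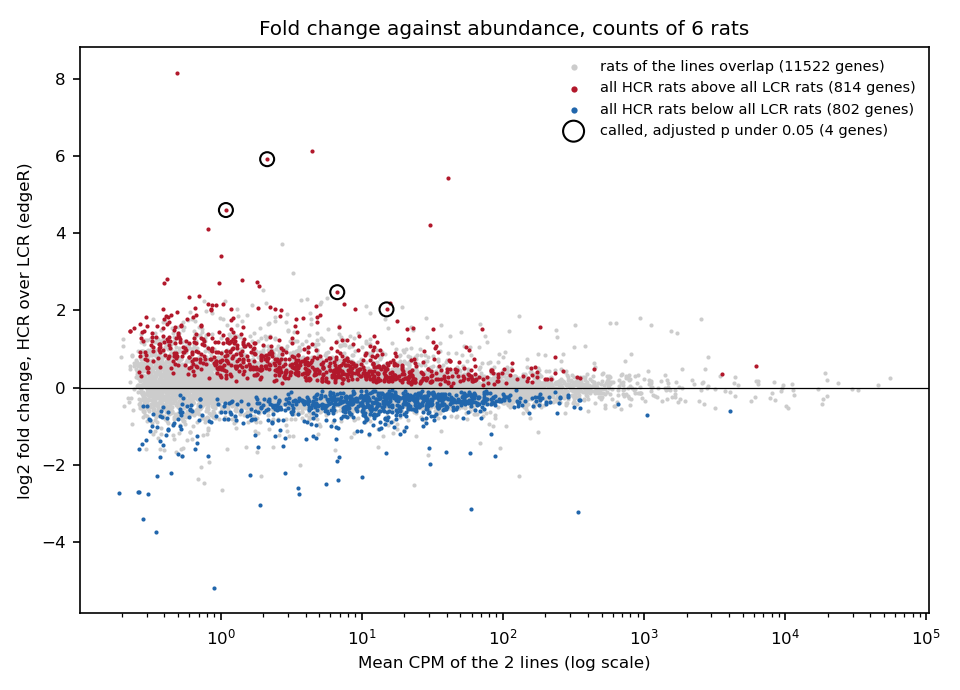
Fitted log2 fold change of HCR over LCR (vertical axis) against the mean CPM of the lines (horizontal log axis) for the 13138 tested genes. Red and blue points are the 814 and 802 genes whose HCR rats lie wholly above or below the LCR rats, grey points overlap, and open circles mark the 4 called genes, all above 0.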

How the data were processed

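Sequencing libraries were made from total RNA of frozen gastrocnemius. The authors deposited raw counts per Ensembl gene, not normalized and not filtered, made per the file headers with featureCounts 1.6.4 on Rnor_6.0 with the annotation of Ensembl release 91. Strand was ignored (setting 0) and a read was counted for every gene it overlapped, so overlapping and antisense genes share counts. The submitters' processing notes name TopHat2 2.1.1, Cufflinks and Cuffdiff. The expression level per line deposited by the authors carries no unit and is used here as a score. The same table holds 3 columns of the authors' comparison (fold change, p-value and q-value), which were not used. Of its 434 entries, 383 matched a RefSeq symbol and 17 a synonym.

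Groups were taken from the sample labels. The test was edgeR 4.0.16 in R 4.3.3 (filterByExpr with a count minimum of 10, TMM, robust quasi-likelihood fit, Benjamini-Hochberg adjustment, prior count of 2 for log2 CPM), and DESeq2 1.42.0 as an alternative. Between replicates the chi-square of the counts was 83.1 to 254 per gene, so none was counted as a repeat. Column headings carry an unexplained number, 1 or 3.

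The members and gene lists were chosen with earlier results of these data known. The groups of heart-type, arrest and p53, transcription factor, lipid, lactate and ketone, innate immune, and complement genes were written after the levels were seen. Named identifiers are the genes with the smallest unadjusted p among those past a 1.5-fold change whose lines do not overlap and that reach 1 CPM, at most 2 in each direction. A few list members are not reported here and were left out of the lists.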

Additional observations from a re-analysis of the deposited data

How the results depend on the processing

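The number of called genes, 4, was 4 with RLE scaling and with no fold change threshold, and 3 with library totals alone and with only the 4 libraries whose heading carries the number 1, a setting chosen after seeing the data. It was 17 with no filter beyond 1 count, 0 with at least 10 counts in every library, 0 with the heading number as a covariate, 11 with all 18 libraries in 1 fit, 78 with DESeq2's Wald test, 1 in the test against a fold change of 1.5 and 7 at an adjusted p under 0.10. DESeq2 called 47 genes higher and 31 lower, and all 4 genes of the main test were among them, as they were with no filter beyond 1 count and with RLE scaling. Of these 4, 3 were called with library totals alone, 2 with all 18 libraries, 1 in the 4 libraries with heading number 1, and 0 to 2 with a rat left out. With each rat left out the number ran from 0 (without LCR replicate 2 or 3) to 10 (without HCR replicate 3). The genes at an unadjusted p under 0.05, 603, ran from 520 to 955 with a rat left out, the 955 without LCR replicate 3, and were 379 in the 4 libraries with heading number 1. The share of these that were higher, 65.5%, was lowest, 53.9%, without HCR replicate 1 and highest, 70.2%, without LCR replicate 3. The number that did not overlap, 1616, ran from 2422 to 3595 with a rat left out and was 3372 in those 4 libraries, since fewer rats overlap less often by construction. Apart from that, the cause of these shifts was not tested.

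With the replicate number as a block 0 genes were called and 650 passed the unadjusted threshold. The deviations of same-numbered rats correlated at -0.227, 0.224 and 0.222, so the numbers were not taken to pair the rats. The median fold changes of gene lists and the values of named symbols could not be recomputed under any setting, because the counts carry identifiers only. Depth limits genes of few counts, and 3 rats per line limit all tests.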
